A study of Arabidopsis thaliana with 6 samples.

Results

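The genes described here are 54 cell cycle genes of Arabidopsis thaliana: the machinery of DNA replication, the cyclins, kinases and cytokinesis proteins of mitosis, and the inhibitors of cyclin-dependent kinases (CDKs). They were taken by gene ID from a list of known family members, out of 26726 genes in the deposited expression table. The rule used no measured value, but the list was chosen with earlier results of these data known. Their 76 isoforms, of 35593 in the table, were summed per gene. By role, 17 belong to S phase, 27 to mitosis and 9 to the inhibitors, and CDKA;1, the kinase used in both phases, stands alone. RNA came from root explants at the onset of shoot meristem formation, cultured in continuous light at 22 °C for 5 days on CIM (callus-inducing medium) and 7 days on SIM (shoot-inducing medium). SIM was supplied with a cytokinin, N6-(2-isopentenyl)adenine at 1 mg/L, and an auxin, IAA at 0.15 mg/L. There were 2 libraries each of wild type (WT), of the single mutant arr1, and of Pro35SARR1, a name that puts ARR1 under the constitutive 35S promoter. ARR1 is a transcription factor of the cytokinin response. The sources used here do not give the allele, the transgenic line or the number of explants pooled. The labels do not say whether the 2 libraries of a genotype are separate cultures, and the p-values cover the spread between these libraries alone, which may be technical.

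A plant cell licenses its DNA for replication when CDC6 and CDT1 load the MCM helicase at origins, and the PCNA clamp then holds the polymerases on the template. E2F factors, held in check by the retinoblastoma-related protein RBR1, activate many of these genes. Entry into mitosis depends on B-type cyclins with plant-specific B-type CDKs. Many mitotic genes, though not all, are driven at the transition from G2 by MYB3R factors through the MSA element. The anaphase-promoting complex, with its activators CDC20 and CCS52, then destroys the cyclins, while the KRP and SIM proteins inhibit CDKs. Cytokinin and auxin together promote division in cultured explants.

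Total estimated counts ranged from 8193313 to 9381532 per library. ARR1 itself stood at 61.3 and 59.8 CPM in WT, 61.2 and 58.6 CPM in the arr1-labelled libraries, and 1725 and 1909 CPM in Pro35SARR1 (CPM, counts after scaling by library size). By this level the libraries labelled arr1 could not be told from WT (log2 fold change −0.015, SE 0.102, adjusted p = 0.949, edgeR quasi-likelihood test), so the directions below depend on the label of those libraries being right. Markers of other tissues differed between the genotypes. The summed level of the leaf primordium genes FIL and YAB3 was 1.24 and 2.70 CPM in WT, 68.5 and 88.0 CPM in the arr1-labelled libraries, and 1.82 and 3.13 CPM in Pro35SARR1. The 3 shoot meristem genes STM, WUS and CLV3 summed to 11.4 to 17.1 CPM in WT, 26.2 to 36.5 CPM in arr1 and 35.8 to 45.9 CPM in Pro35SARR1, with CLV3 between 0 and 0.456 CPM. STM and WUS did not move together: STM averaged 4.28 CPM in WT, 22.8 CPM in arr1 and 5.46 CPM in Pro35SARR1, and WUS 9.91, 8.24 and 35.2 CPM. The 3 green tissue markers summed to 4248 and 5506 CPM in WT, 3841 and 3930 CPM in arr1, and 2198 and 3210 CPM in Pro35SARR1, with no overlap between genotypes. RBCS1A followed this order, but CAB1 overlapped between WT (2130 and 2729 CPM) and arr1 (2357 and 2075 CPM). LHCB2.1 was higher in Pro35SARR1 (109.9 and 121.3 CPM) than in arr1 (62.4 and 69.1 CPM). The 5 root meristem markers summed to 74.1 to 75.0, 86.3 to 100.2 and 66.8 to 70.3 CPM, nearly all from SHR and SCR. Their part in the differences below was not tested, and in whole explants fewer cells of a type and less RNA per cell cannot be told apart.

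The promoters of 6 of the genes are shown because they carry matches to motifs known from S-phase and mitotic genes. Each holds the 250 bases before the gene and its first 50 bases in the RefSeq annotation of TAIR10.1, 300 bases in all, read 5′ to 3′ on the gene's strand. Capitals mark matches, on either strand, to the E2F-type words TTTCCCGC, TTTCGCGC, TTTGCCGC and TTTGGCGC or to AACGG, the core of the MSA element, which reads CCGTT on the other strand. MCM2 (chr1:16969964-16970263, plus strand) and MCM5 (chr2:3527451-3527750, minus strand) stand for the helicase. CYCB1;1 (chr4:17624259-17624558, minus strand), CYCB1;2 (chr5:1861654-1861953, minus strand) and KNOLLE (chr1:2710951-2711250, minus strand) stand for mitosis and cytokinesis. KRP1 (chr2:9978041-9978340, minus strand) is the inhibitor with the most MSA cores.
MCM2: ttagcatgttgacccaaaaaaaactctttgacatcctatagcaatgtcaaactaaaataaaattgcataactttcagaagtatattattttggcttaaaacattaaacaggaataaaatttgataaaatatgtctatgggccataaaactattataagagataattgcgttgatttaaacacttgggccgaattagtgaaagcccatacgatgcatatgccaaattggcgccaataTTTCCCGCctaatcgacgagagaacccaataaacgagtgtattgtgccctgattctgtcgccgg
MCM5: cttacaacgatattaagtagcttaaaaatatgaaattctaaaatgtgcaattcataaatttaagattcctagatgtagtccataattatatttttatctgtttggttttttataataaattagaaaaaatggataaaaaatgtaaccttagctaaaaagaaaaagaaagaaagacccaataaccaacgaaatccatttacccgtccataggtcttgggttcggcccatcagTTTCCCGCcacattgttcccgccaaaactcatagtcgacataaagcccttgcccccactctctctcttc
CYCB1;1: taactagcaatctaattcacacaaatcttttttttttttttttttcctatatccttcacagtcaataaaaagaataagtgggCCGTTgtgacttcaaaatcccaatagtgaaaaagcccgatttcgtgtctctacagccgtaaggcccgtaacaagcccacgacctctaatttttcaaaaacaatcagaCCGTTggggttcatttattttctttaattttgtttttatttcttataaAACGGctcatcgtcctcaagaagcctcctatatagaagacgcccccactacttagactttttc
CYCB1;2: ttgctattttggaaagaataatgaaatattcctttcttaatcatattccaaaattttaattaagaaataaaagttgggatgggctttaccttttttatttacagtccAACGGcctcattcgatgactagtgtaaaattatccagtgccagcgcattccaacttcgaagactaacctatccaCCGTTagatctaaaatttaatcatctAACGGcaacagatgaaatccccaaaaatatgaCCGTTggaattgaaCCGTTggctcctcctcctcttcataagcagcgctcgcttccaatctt
KNOLLE: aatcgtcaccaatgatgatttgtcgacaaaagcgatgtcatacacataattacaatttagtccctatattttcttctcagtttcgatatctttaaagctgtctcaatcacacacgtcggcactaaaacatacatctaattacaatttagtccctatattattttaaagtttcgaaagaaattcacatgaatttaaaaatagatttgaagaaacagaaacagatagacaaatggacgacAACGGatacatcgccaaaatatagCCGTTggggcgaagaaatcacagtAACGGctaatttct
KRP1: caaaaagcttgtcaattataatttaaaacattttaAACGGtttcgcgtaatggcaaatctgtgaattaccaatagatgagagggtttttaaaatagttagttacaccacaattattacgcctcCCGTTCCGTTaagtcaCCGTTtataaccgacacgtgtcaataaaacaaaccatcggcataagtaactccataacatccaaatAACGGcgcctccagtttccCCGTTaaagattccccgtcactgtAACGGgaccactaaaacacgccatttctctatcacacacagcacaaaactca

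The E2F-type words occurred in 6 of 54 promoters, those of MCM2, MCM3, MCM4, MCM5, MCM6 and RBR1, against 1.76% of 27443 promoters of protein-coding genes. None of the 27 mitotic promoters held one. The MSA core occurred in 28 of 54 promoters against 24.7% of all promoters. It was found in 16 of 27 mitotic, 6 of 17 S-phase and 6 of 9 inhibitor promoters. Among B-type cyclins 8 of 9 promoters held it and 7 held it at least 2 times, which 4.89% of all promoters did. All 4 promoters of the cytokinesis and Aurora genes held it, while 1 of 5 promoters of the anaphase-promoting complex activators did. Of the CDK genes also 1 of 5 promoters held it, that of CDKB2;2, and those of CDKB1;1, CDKB1;2 and CDKB2;1 did not. A match is a description of letters and not a bound site.

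**Figure D1:**
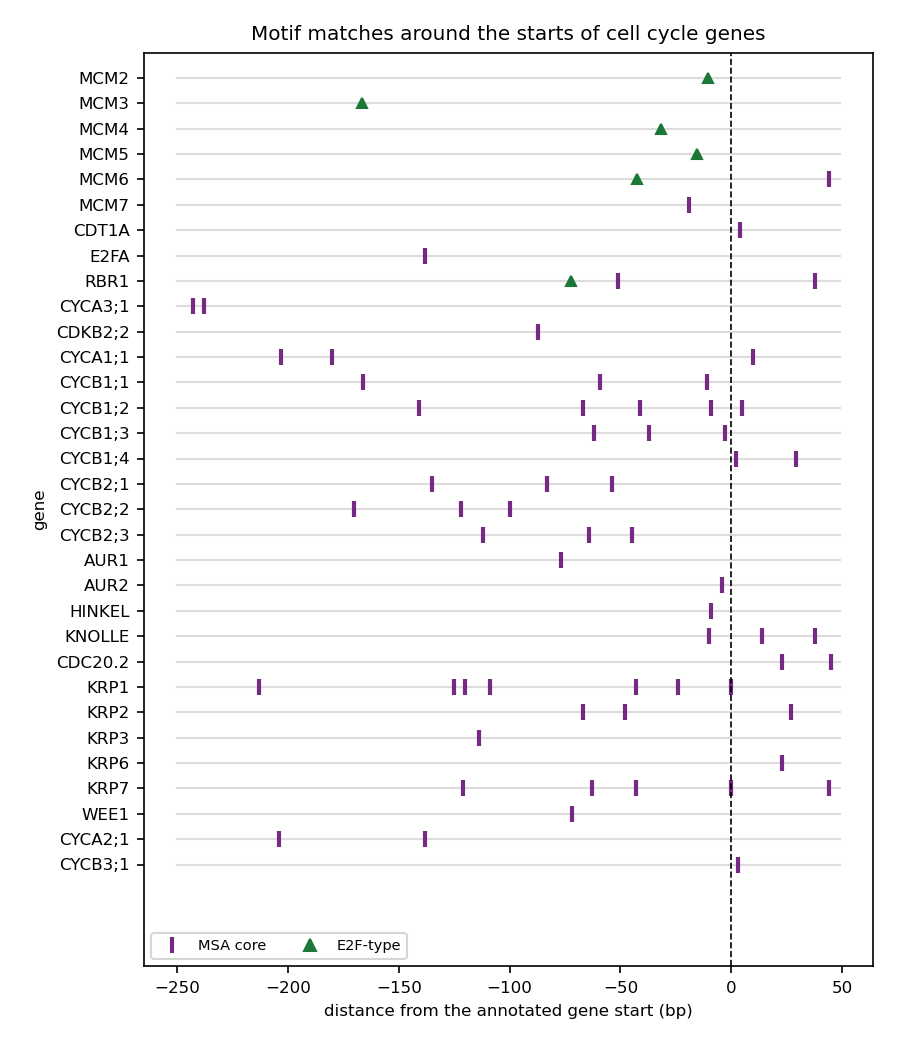
Position of motif matches in the 32 promoters with at least 1 match; the x axis is the distance in base pairs from the annotated gene start (dashed line), each row is a gene, bars are MSA cores and triangles E2F-type words. The MSA cores of CYCB1;1 lie upstream of the start, those of KNOLLE lie on both sides of it, and the E2F-type words are in MCM genes and RBR1.

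Of the 54 genes 52 had enough counts to be tested. The A-type cyclin gene CYCA2;1 reached 0.342 CPM in 1 library labelled arr1 and was at 0 in the other 5, and the B-type cyclin gene CYCB3;1 reached 0.447 CPM in 1 Pro35SARR1 library and was at 0 elsewhere, where 3 counts correspond to 0.335 to 0.345 CPM. Ranked per length by mean FPKM over the 6 libraries, the CDK inhibitor gene KRP2 was highest at a mean level of 80.6 FPKM (61.4 to 102.7). It was followed by KNOLLE, a syntaxin of the cell plate, at 62.2 FPKM (44.9 to 80.2) and PCNA1, encoding the replication clamp, at 60.0 FPKM (55.3 to 64.2). These neighbours overlapped in their ranges, and in both libraries labelled arr1 KNOLLE (80.2 and 75.3 FPKM) was above KRP2 (61.4 and 61.8 FPKM). CDKA;1 had a level of 48.2 FPKM (44.8 to 52.2), PCNA2 45.9 FPKM (37.5 to 52.3) and the inhibitor gene SIM 44.8 FPKM (32.8 to 69.7), again with overlapping ranges. At the low end stood CDC6, which loads the helicase, at 2.85 FPKM (2.07 to 3.46). The 5 MCM genes other than MCM6 lay close together, with mean levels of 15.3 to 26.6 FPKM. The 6 proteins together form the replicative helicase. MCM6 stood apart at 1.64 FPKM.

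MCM6 (AT5G44635) measured 0.226 and 6.63 CPM in WT, 7.58 and 5.01 CPM in the arr1-labelled libraries, and 3.76 and 1.01 CPM in Pro35SARR1. Its WT values spanned nearly the whole range, so no difference between genotypes could be read from it (arr1 against WT, log2 fold change 0.87, 95% interval −2.08 to 3.83). MCM6 was singled out after its values were seen.

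**Figure D2:**
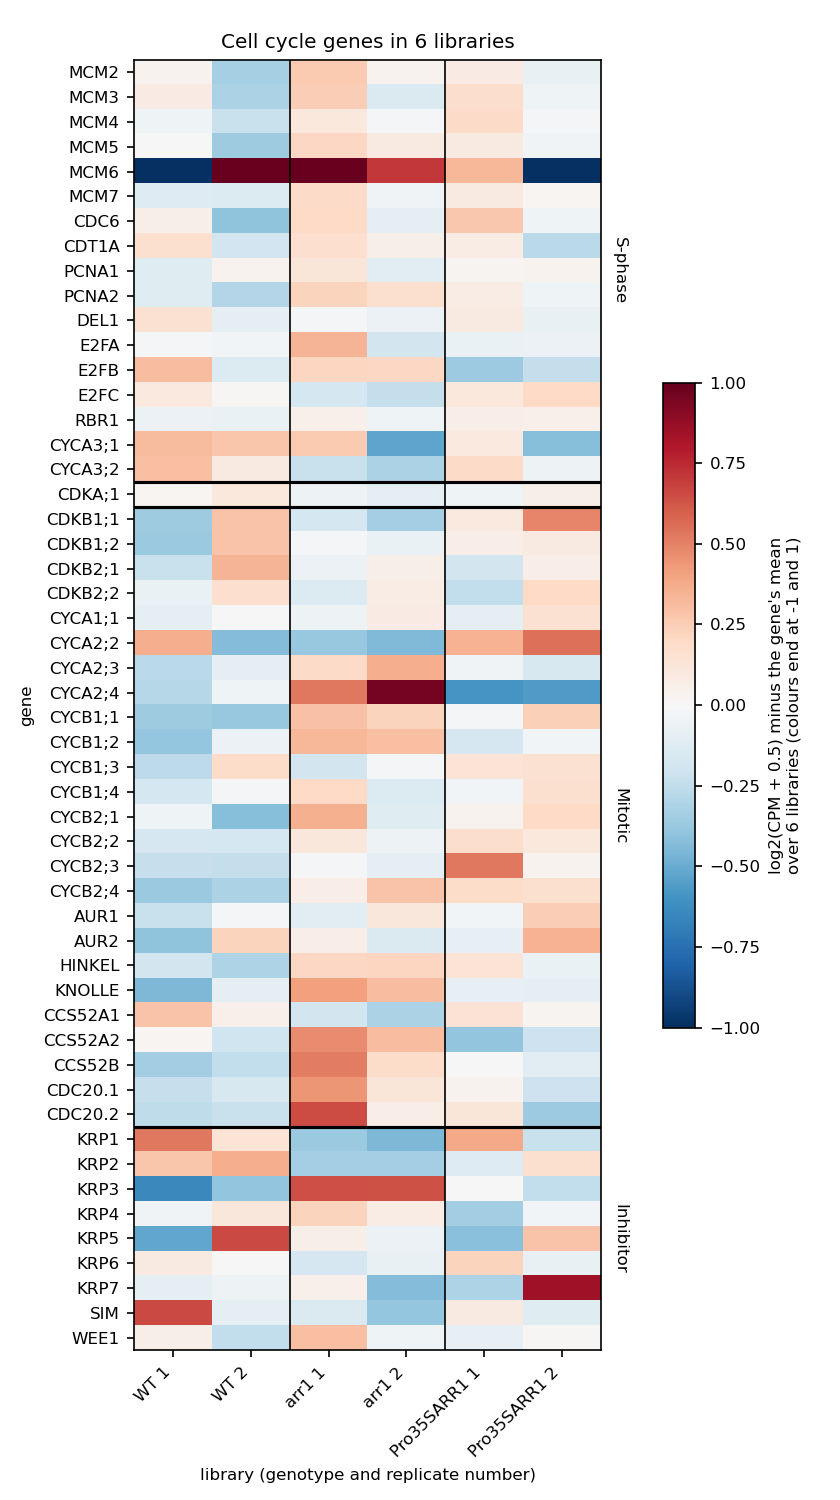
The 52 tested genes (rows, grouped by role) in the 6 libraries (columns); colour is log2(CPM + 0.5) minus the gene's mean over the 6 libraries, red above and blue below, with colours ending at −1 and 1. KRP1 and KRP2 are low and KRP3 high in both libraries labelled arr1, and MCM6 varies within WT. The row of CYCA2;4 is its deposited ID, which also holds transcripts of a neighbouring gene.

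The deposited ID of CYCA2;4, an A-type cyclin gene, needs a caution before any comparison. The ID AT1G80370 also contains the transcripts of its neighbour AT1G80380, which is left unnamed by the files and the annotation used here. The neighbour supplied 78.6% to 94.7% of the estimated count under that ID. CYCA2;4's own transcript had 52.9 and 37.5 estimated counts in WT, 74.8 and 51.1 in the arr1-labelled libraries, and 70.7 and 60.0 in Pro35SARR1. The transcripts of AT1G80380 had 359.7 and 453.6 in WT, 639 and 922 in arr1, and 259 and 283 in Pro35SARR1. The neighbour's counts separated all 3 genotypes, while those of the cyclin overlapped between arr1 and Pro35SARR1 and between arr1 and WT. Results under the deposited ID are therefore given beside those for isoforms summed by their own locus. Of 1124 transcripts in the table filed under the ID of another gene, 4 touched this gene and none touched the other 53.

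**Figure D3:**
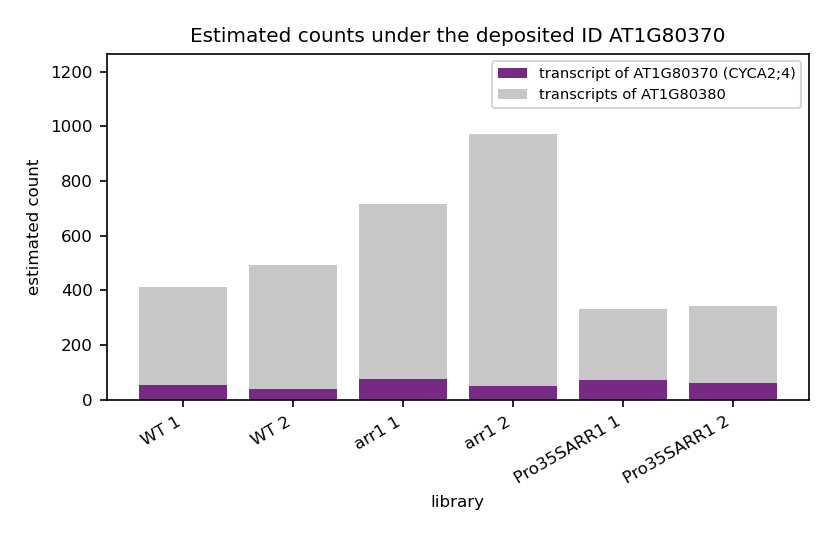
Estimated counts (y axis) under the deposited ID of CYCA2;4 in each library (x axis), split into the transcript of the cyclin gene (purple) and the transcripts of the neighbouring gene AT1G80380 (grey). The purple part lies between 37.5 and 74.8 in every library and is higher in both Pro35SARR1 libraries than in WT. The grey part, from 259 to 922, makes up most of each bar and does not overlap between genotypes.

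The comparison of the libraries labelled arr1 with WT asks how division genes differ in the mutant as shoots form. In it the cytokinesis genes KNOLLE and HINKEL, the cyclin genes CYCB1;1 and CYCB1;2, the complex activator CCS52B, PCNA2 and the inhibitor gene KRP3 were higher, and KRP1, KRP2 and the S-phase cyclin gene CYCA3;2 were lower. These calls were made when the replicate number entered the model as a block. Without the block, 0 of 52 genes were higher and 0 lower at an adjusted p under 0.05 (edgeR quasi-likelihood test), against 1.09% and 1.9% of the 18083 genes tested. At an unadjusted p under 0.05, 12 were higher, the merged ID of CYCA2;4 among them, and 3 lower, against 9.63% and 12.4% of all genes. With the block 8 were higher and 3 lower, against 6.23% and 9.51% of all genes. The eighth higher call was the merged ID of CYCA2;4, and with isoforms summed by their own locus the other 10 calls were shared, 7 higher and 3 lower, against 5.67% and 9.37%.

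The calls under the block rest on all libraries being present. The share of all genes called is not given for the fits with 1 library left out. The counts from those fits therefore cannot be set against other genes. With WT replicate 1 left out 1 gene was higher and 0 lower, and with WT replicate 2 left out the counts were 4 and 1, of which MCM6 and the inhibitor gene SIM were not called with all libraries present. They were 2 and 1 when arr1 replicate 1 was dropped and 4 and 2 when arr1 replicate 2 was. Dropping either Pro35SARR1 replicate 1 or Pro35SARR1 replicate 2 left 2 and 1. The merged ID of CYCA2;4 was among them each time. DESeq2 called 3 higher, KNOLLE, KRP3 and the merged ID of CYCA2;4, and 1 lower, KRP2, against 2.37% and 4.54% of the genes it tested. Scaling by library totals alone gave 2 higher (KRP3 and the merged ID of CYCA2;4) and 0 lower, against 1.21% and 0.708%. Limma on log2 FPKM gave 1 higher (KRP3) and 0 lower, against 1.56% and 2.67% with a pseudocount of 1 and 1.21% and 2.43% with 0.1. None of the 54 genes was in the authors' deposited table of 437 genes that differ between arr1 and WT. That list is short beside the 26726 genes with deposited expression values. The authors' adjusted p-values in it were at most 0.00983, a stricter limit than the threshold for calls used here. Absence from so short a list does not set the 54 genes apart from other genes.

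The libraries of the 2 genotypes did not overlap for 19 genes that were higher and 9 that were lower in the libraries labelled arr1, against 27.2% and 27.2% of all genes tested. By role, 13 of these higher and 1 lower were mitotic, 5 higher and 3 lower were of S phase, 1 higher and 4 lower were inhibitors, and CDKA;1 was lower. The merged ID of CYCA2;4 is one of the 13 higher mitotic genes, and its own transcript overlapped between the genotypes. The median log2 fold change was 0.12 over 17 S-phase genes, 0.21 over 25 mitotic genes and −0.17 over 9 inhibitors, beside −0.002 over all genes tested. Scaling by library totals alone moved the median of all genes to 0.13, and the 3 medians to 0.25, 0.34 and −0.04.

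**Figure D4:**
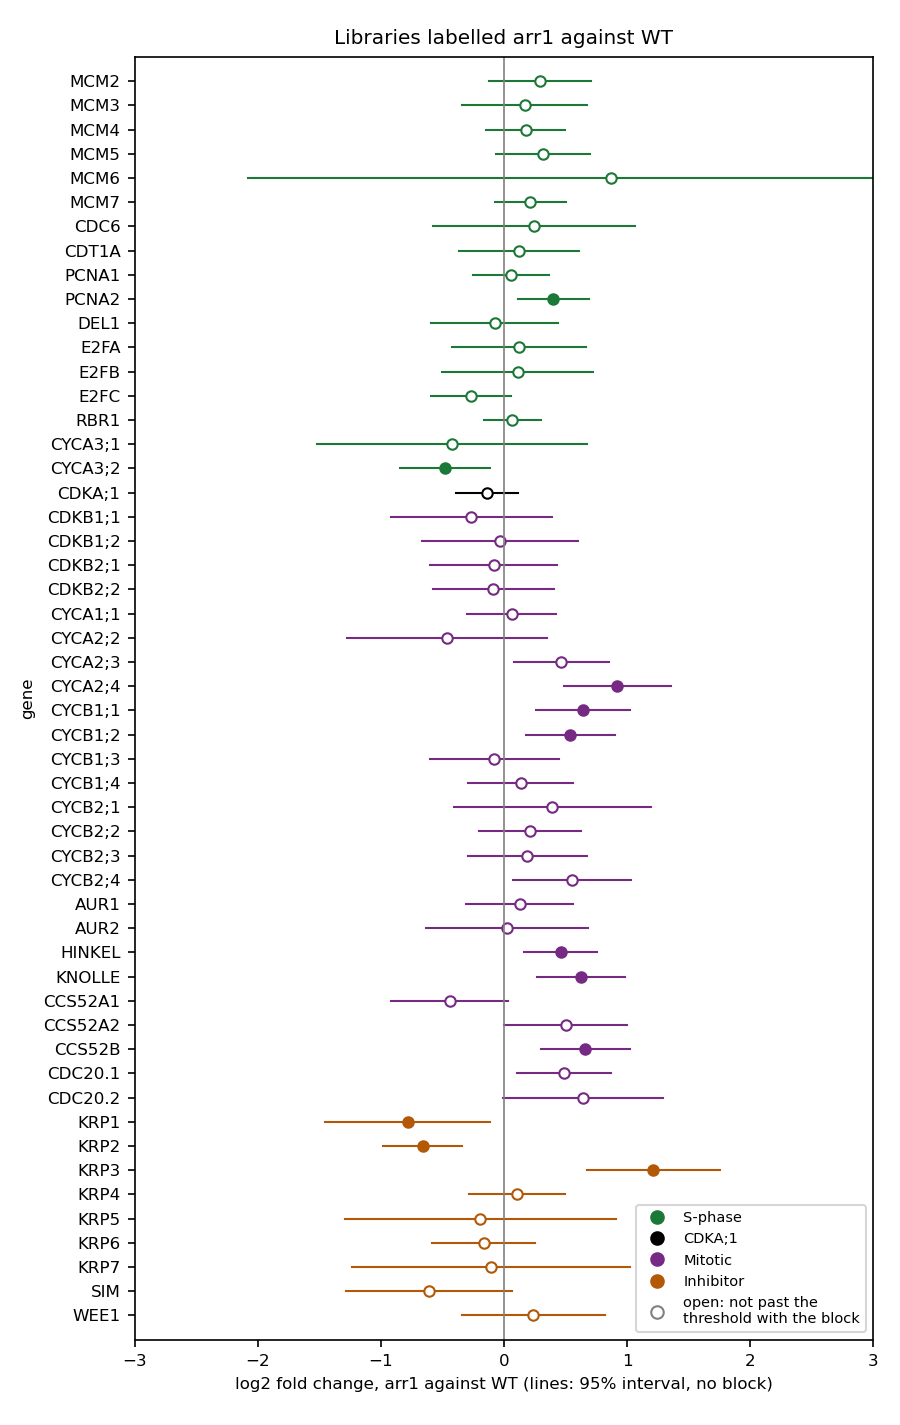
Log2 fold change of the libraries labelled arr1 against WT (x axis, points) with its 95% interval (lines) for the 52 tested genes, coloured by role, from the fit without the block; the interval of MCM6 runs past the axis end. Filled points are past the threshold with the replicate block. KRP3 is at 1.22 and KRP1 at −0.78. The filled point of CYCA2;4 is its deposited ID, which also holds transcripts of a neighbouring gene. Its own transcript was not past the threshold with the block.

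Among S-phase genes, the clamp gene PCNA2 (AT2G29570) had 41.4 and 36.8 CPM in WT, 52.6 and 50.6 CPM in the arr1-labelled libraries, and 47.6 and 43.9 CPM in Pro35SARR1. Both arr1 values lay above both WT values and the Pro35SARR1 values lay between them (log2 fold change 0.40, SE 0.116, adjusted p = 0.126, and 0.0385 with the block). PCNA2 overlaps another annotated gene, and whether reads were counted by strand is not given in the sources used here. CYCA3;2 (AT1G47210), a cyclin of S phase, had 38.0 and 32.8 CPM in WT, 26.3 and 24.6 CPM in arr1, and 35.2 and 29.7 CPM in Pro35SARR1. It was lower in both libraries labelled arr1 than in any other library (log2 fold change −0.48, SE 0.148, adjusted p = 0.146, and 0.0385 with the block).

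No MCM gene was past the threshold with all 6 libraries, with or without the block, and MCM6 was called higher with the block when WT replicate 2 was left out. All 6 had a log2 fold change above 0, with a median of 0.25, where 49.7% of all genes tested lay above 0. MCM5 (AT2G07690) had 50.1 and 38.8 CPM in WT, 57.7 and 53.1 CPM in the arr1-labelled libraries, and 53.0 and 48.5 CPM in Pro35SARR1 (log2 fold change 0.32, 95% interval −0.06 to 0.70, adjusted p = 0.294, and 0.0926 with the block). MCM7 (AT4G02060) had 60.7 and 60.4 CPM, 75.7 and 64.8 CPM, and 70.6 and 67.1 CPM. The arr1 values lay above those of WT for both genes, and MCM5's WT spread was as wide as that difference. MCM5 carries the E2F-type word shown above, while MCM7 has none in its window. MCM7 overlaps another annotated gene.

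The licensing factor CDT1A (AT2G31270) was at 25.0 and 19.4 CPM in WT and 25.2 and 23.2 CPM in the arr1-labelled libraries, which overlapped (95% interval of the log2 fold change −0.36 to 0.61). E2FB (AT5G22220), an activating E2F, had 9.36 and 6.74 CPM in WT, 8.73 and 8.65 CPM in arr1, and 5.69 and 6.26 CPM in Pro35SARR1. E2FC (AT1G47870), an E2F that acts as a repressor, had 24.7 and 23.3 CPM, 20.3 and 19.5 CPM, and 24.8 and 26.6 CPM. E2FC was lower in both libraries labelled arr1 without passing the threshold (log2 fold change −0.27, SE 0.132, adjusted p = 0.300, and 0.205 with the block).

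Positions of whole genes are those deposited, which put a gene edge within 500 bp of the TAIR10.1 annotation for 99.8% of 25934 genes. Among mitotic genes, KNOLLE (AT1G08560, chr1:2709632-2710912) had 47.0 and 60.4 CPM in WT, 85.7 and 79.8 CPM in the arr1-labelled libraries, and 60.6 and 60.0 CPM in Pro35SARR1. The arr1 values lay above all others, 1.54-fold over those of WT (a log2 fold change of 0.62, SE 0.144, adjusted p = 0.0817, and 0.0299 with the block). HINKEL (AT1G18370), a kinesin of the phragmoplast that also acts in cytokinesis, had 42.1 and 38.4 CPM, 55.1 and 55.6 CPM, and 52.6 and 45.5 CPM. It was 1.38-fold higher in arr1 than in WT with no overlap (log2 fold change 0.46, SE 0.121, adjusted p = 0.104, and 0.0329 with the block).

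The B-type cyclin gene CYCB1;1 (AT4G37490), widely used as a marker of cells in G2 and mitosis, had 15.1 and 14.8 CPM in WT, 24.0 and 22.8 CPM in the arr1-labelled libraries, and 19.3 and 23.0 CPM in Pro35SARR1. Both WT values lay below those of the other genotypes (for arr1 over WT a log2 fold change of 0.64, SE 0.155, adjusted p = 0.0880, and 0.0392 with the block). CYCB1;2 (AT5G06150) had 31.9 and 40.4 CPM in WT, 53.1 and 51.9 CPM in arr1, and 37.2 and 41.2 CPM in Pro35SARR1. Here arr1 stood above WT and Pro35SARR1, which overlapped each other (for arr1 over WT a log2 fold change of 0.54, SE 0.146, adjusted p = 0.111, and 0.0337 with the block). CYCB1;1 overlaps another annotated gene. The promoters of both, shown above, hold 3 and 5 MSA cores. Of the 8 B-type cyclins tested 7 had a log2 fold change above 0, against 49.7% of all genes tested, and the family's median was 0.30. The exception, CYCB1;3, turned positive when libraries were scaled by totals alone, with all 8 then above 0. That scaling also raised the median of all genes above 0, so the change of sign is not particular to this family.

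No CDK gene was past the threshold. CDKA;1, CDKB1;1, CDKB1;2, CDKB2;1 and CDKB2;2 all had log2 fold changes below 0, with a median of −0.09, where 49.7% of all genes lay above 0. With scaling by totals alone, which raised the median of all genes above 0, 3 of these 5 were above 0. CDKB1;1 (AT3G54180), a mitotic kinase, had 17.8 and 28.1 CPM in WT, 20.22 and 18.0 CPM in the arr1-labelled libraries, and 24.6 and 32.4 CPM in Pro35SARR1. Its WT values enclosed those of arr1 (95% interval of the log2 fold change −0.92 to 0.39). CDKA;1 (AT3G48750) had 63.4 and 67.0 CPM, 60.1 and 58.4 CPM, and 60.6 and 65.1 CPM (arr1 against WT, 95% interval −0.39 to 0.11).

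Of the 5 activators of the anaphase-promoting complex 4 had a log2 fold change above 0, against 49.7% of all genes tested, and the median was 0.50. CCS52B (AT5G13840), which is expressed around mitosis, had 29.7 and 31.8 CPM in WT, 54.1 and 43.0 CPM in the arr1-labelled libraries, and 37.7 and 35.1 CPM in Pro35SARR1. The arr1 values were above all others, 1.58-fold over those of WT (a log2 fold change of 0.66, SE 0.147, adjusted p = 0.0768, and 0.0268 with the block). CCS52B overlaps another annotated gene. CCS52A2 had 10.15 and 8.66 CPM in WT, 14.1 and 12.5 CPM in arr1, and 7.51 and 8.60 CPM in Pro35SARR1, with an adjusted p of 0.225 for arr1 against WT and 0.144 with the block. Its paralog CCS52A1, which promotes the switch to endoreduplication, went the other way at 13.8 and 11.6 CPM in WT, 9.76 and 8.88 CPM in arr1, and 12.4 and 11.4 CPM in Pro35SARR1, also short of the threshold (log2 fold change −0.44, adjusted p = 0.253, and 0.140 with the block). CCS52A1 was named after its values were seen.

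Among the inhibitors KRP1 and KRP2 fell and KRP3 rose under the block. KRP2 (AT3G50630, chr3:18800380-18801587) had 78.8 and 83.9 CPM in WT, 51.5 and 51.4 CPM in the arr1-labelled libraries, and 59.6 and 73.0 CPM in Pro35SARR1. WT was above every other library and arr1 below every other, 1.58-fold lower than in WT (a log2 fold change of −0.66, SE 0.129, adjusted p = 0.0603, and 0.0143 with the block). KRP1 (AT2G23430, chr2:9976746-9978021) had 19.3 and 14.6 CPM in WT, 10.11 and 9.57 CPM in arr1, and 17.4 and 11.3 CPM in Pro35SARR1. Its arr1 values were the lowest of all (log2 fold change −0.78, SE 0.272, adjusted p = 0.177, and 0.0471 with the block), and its promoter holds 7 MSA cores, more than that of KNOLLE or CYCB1;1.

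KRP3 (AT5G48820, chr5:19792270-19794408) had 5.30 and 6.41 CPM in WT, 13.7 and 13.6 CPM in the arr1-labelled libraries, and 8.54 and 7.15 CPM in Pro35SARR1. The genotypes did not overlap, and arr1 was 2.32-fold above WT (a log2 fold change of 1.22, SE 0.218, adjusted p = 0.0514, and 0.0204 with the block). KRP3 was also past the threshold with limma on log2(FPKM + 1). Without WT replicate 1, WT replicate 2 or either library labelled arr1, KRP3 was not past the threshold with the block. The other inhibitors were KRP4, KRP5, KRP6, KRP7, SIM and WEE1, a kinase that inhibits CDKs, and none of these 6 was past the threshold with all libraries in the fit. SIM had 43.3 and 25.4 CPM in WT, 24.5 and 20.6 CPM in the arr1-labelled libraries, and 28.9 and 24.9 CPM in Pro35SARR1. WT replicate 1 stood far above the other 5 libraries, and SIM was called lower in arr1 with the block when WT replicate 2 was left out.

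**Figure D5:**
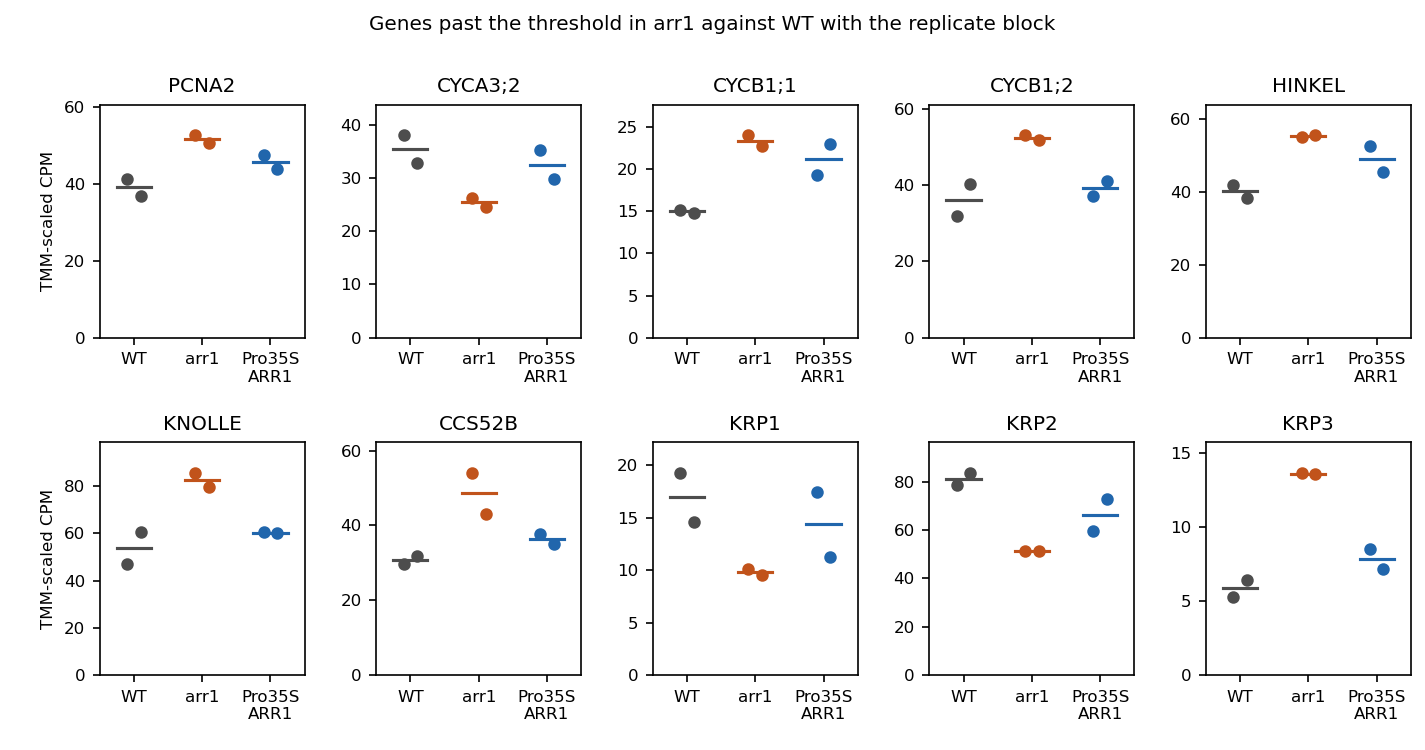
TMM-scaled CPM (y axis, from 0) of 10 genes past the threshold in arr1 against WT with the replicate block, leaving out the merged ID of CYCA2;4; points are the 2 libraries of each genotype (x axis) and lines their means. In every panel the arr1 points lie apart from the WT points, as in KRP2 at 51.5 and 51.4 against 78.8 and 83.9. That separation is partly built in, since the genes were chosen by the same comparison.

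The comparison of Pro35SARR1 with WT asks what a high ARR1 level does to the same genes. With ARR1 raised (log2 fold change 4.91, SE 0.117, adjusted p = 0.000397), 0 of the 52 genes were higher and 0 lower, against 0.0885% and 0% of all genes tested. With the block the counts were also 0 and 0, against 1.18% and 0.89%, and DESeq2 called 0 and 0, against 0.917% and 0.383%. At an unadjusted p under 0.05, 3 were higher, the B-type cyclin genes CYCB1;1, CYCB2;3 and CYCB2;4, and 0 lower, against 4.92% and 4.82% of all genes. All 8 B-type cyclins tested had a log2 fold change above 0, with a median of 0.35, where 49.6% of all genes lay above 0. For CYCB1;1, with the counts given above, it was 0.50 (SE 0.155, adjusted p = 0.383, and 0.163 with the block).

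The libraries of Pro35SARR1 and WT did not overlap for 13 higher and 6 lower genes, against 18.6% and 18.6% of all genes tested. One of the 6 lower was the merged ID of CYCA2;4. The own transcript went the other way without overlap, at 5.98 and 4.27 CPM in WT and 8.08 and 6.70 CPM in Pro35SARR1 (log2 fold change 0.53, 95% interval −0.26 to 1.32). The medians were 0.10 over S-phase genes, 0.17 over mitotic genes and −0.22 over inhibitors, beside −0.003 over all genes. KRP2 was lower in both Pro35SARR1 libraries than in either WT library (log2 fold change −0.29, 95% interval −0.61 to 0.02, adjusted p = 0.541, and 0.212 with the block). KRP3 was higher in both (log2 fold change 0.42, 95% interval −0.12 to 0.97, adjusted p = 0.614). Both comparisons with WT use the same 2 WT libraries, so a shared direction of a gene in them is not independent.

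Pro35SARR1 against arr1 compares the high-ARR1 libraries with those labelled as mutant. Under the deposited IDs 0 of 52 genes were higher and 1 lower, against 4.09% and 2.38% of all genes tested, and with the block also 0 and 1, against 11.5% and 8.82%. The 1 call was CYCA2;4 (log2 fold change −1.35, SE 0.178, adjusted p = 0.0206, and 0.00272 with the block). With isoforms summed by their own locus 0 were higher and 0 lower, against 4% and 2.1% of all genes, and with the block also 0 and 0, against 11.4% and 8.17%: CYCA2;4 then had a log2 fold change of 0.04 (95% interval −0.74 to 0.82, adjusted p = 0.949, and 0.876 with the block). The own transcript had 8.62 and 5.81 CPM in the arr1-labelled libraries and 8.08 and 6.70 CPM in Pro35SARR1, which overlapped. Even under the deposited ID the count without the block fell to 0 when any 1 of arr1 replicate 1, arr1 replicate 2, Pro35SARR1 replicate 1 or Pro35SARR1 replicate 2 was left out, while with the block the merged ID was called in each of these fits. At an unadjusted p under 0.05, 3 genes were higher and 6 lower, the merged ID among them, against 13.9% and 11.4% of all genes.

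KRP3, CYCB1;2, KNOLLE and KRP2, all past the threshold in arr1 against WT under the block, came close to it here, in the opposite direction. KRP3 had a log2 fold change of −0.79 (SE 0.214, adjusted p = 0.0895, and 0.0506 with the block). CYCB1;2 was at −0.42 (SE 0.146, adjusted p = 0.147, and 0.0557 with the block). KNOLLE was at −0.46 (SE 0.144, adjusted p = 0.120, and 0.0579 with the block), and KRP2 at 0.37 (SE 0.129, adjusted p = 0.151, and 0.0604 with the block). CCS52A2, which was past the threshold in neither comparison, was at −0.72 (SE 0.204, adjusted p = 0.0972, and 0.0549 with the block). With the block and WT replicate 1 left out 3 genes were lower, and with WT replicate 2 left out 2 were lower and 1 higher. Dropping arr1 replicate 1 gave 1 lower and 1 higher, and dropping arr1 replicate 2 gave 3 lower. The merged ID of CYCA2;4 was among the lower each time, and MCM6, whose WT values lie far apart, was among them without WT replicate 1. KNOLLE was among the lower when either WT library was dropped. For these fits with 1 library left out, the share of all genes called is not given here. The libraries did not overlap for 13 higher and 14 lower genes, against 28.7% and 30.1% of all genes. The merged ID is one of the 14, and the cyclin's own transcript overlapped. This comparison shares the arr1 libraries with the first, so an opposite sign is partly built in.

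The replicate number was also compared as a term of its own, replicate 2 against replicate 1. In the blocked model 0 of 52 genes were higher and 0 lower in replicate 2, against 1.53% and 1.43% of all genes. Of 17 S-phase genes 16 had a log2 difference below 0 and the median was −0.17, where 50% of all genes lay above 0. In CPM, 12 S-phase genes were lower in replicate 2 within each of the 3 genotypes and 0 were higher in each, against 24.8% and 22.9% of all genes. They included MCM2 (48.4 and 37.3 CPM in WT, 56.6 and 48.3 CPM in the arr1-labelled libraries, 49.97 and 44.8 CPM in Pro35SARR1) and MCM3 (40.9 and 30.9, 46.0 and 34.8, 43.7 and 37.5 CPM). Among the 25 mitotic genes tested 6 were higher and 3 lower in replicate 2 in every genotype, against 22.9% and 24.8% of all genes. The count of higher genes was thus close to the share over all genes. One of the higher was the merged ID of CYCA2;4, whose own transcript was lower in replicate 2 in every genotype. The kinase gene CDKB2;1 was among the higher, at 43.0 and 63.8 CPM in WT, 48.4 and 52.4 CPM in arr1, and 44.2 and 52.6 CPM in Pro35SARR1. All 5 CDK genes had a positive difference, with a median of 0.30, where 50% of all genes lay above 0. MCM3 and CDKB2;1 each overlap another annotated gene, and MCM2, MCM3 and CDKB2;1 were named after their values were seen. Beside this, the summed endodermis markers CASP1, CASP2 and MYB36 went from 89.3 to 35.5 CPM in WT, from 44.8 to 42.9 CPM in arr1 and from 64.3 to 27.4 CPM in Pro35SARR1. The summed root hair markers went from 10.4 to 27.9, from 8.39 to 16.5 and from 22.4 to 77.4 CPM. The 3 xylem markers summed to 167.9 and 413.1, 179.2 and 221.7, and 207 and 318.9 CPM. The part of these markers in the S-phase values was not tested.

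A wider list of 75 other cell cycle genes, of which 72 are in the table and 64 were tested, gave the setting. In arr1 against WT 0 were higher and 0 lower without the block, against 1.09% and 1.9% of all genes tested. With the block 5 were higher, BUBR1 of the spindle checkpoint, the topoisomerase gene TOPII, the cytokinesis kinesin gene TES, MAP65-3 of the phragmoplast and POLD1 of DNA polymerase delta, and 2 were lower, the CDK-binding gene CKS1 and TSO2, encoding the small subunit of ribonucleotide reductase, against 6.23% and 9.51% of all genes. Of these 7, TOPII was past the threshold with the block whichever single library was left out, and TSO2 was unless WT replicate 2 was left out. TES was lost without WT replicate 2 or arr1 replicate 1, and CKS1 without WT replicate 1 or WT replicate 2. POLD1 was kept only without arr1 replicate 1, MAP65-3 only without arr1 replicate 2, and BUBR1 in none of these fits. BUBR1 was also not called with isoforms summed by their own locus. TES had 8.46 and 6.18 CPM in WT, 17.6 and 14.6 CPM in the arr1-labelled libraries, and 15.7 and 15.9 CPM in Pro35SARR1, so WT was below the other 2 genotypes (log2 fold change with the block 1.14, SE 0.188, adjusted p = 0.0162). TOPII had 76.6 and 87.9 CPM, 123 and 141 CPM, and 93.7 and 102.7 CPM (with the block 0.69, SE 0.0789, adjusted p = 0.00696). The 3 genotypes did not overlap for TOPII.

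TSO2 was lower where POLD1 and PCNA2, which also serve S phase, were higher. It had 182 and 181 CPM in WT, 127 and 103 CPM in the arr1-labelled libraries, and 185 and 173 CPM in Pro35SARR1. It was lower in both libraries labelled arr1 than in any other library (arr1 against WT with the block, log2 fold change −0.67, SE 0.0964, adjusted p = 0.0116), and in Pro35SARR1 against arr1 it was the 1 of the 64 genes past the threshold without the block, against 4.09% of all genes higher (log2 fold change 0.64, SE 0.125, adjusted p = 0.0441). CKS1 had 64.3 and 65.3 CPM in WT, 42.6 and 44.6 CPM in arr1, and 51.7 and 57.0 CPM in Pro35SARR1, again without overlap (arr1 against WT with the block −0.57, SE 0.0894, adjusted p = 0.0142). In Pro35SARR1 against WT 0 of the 64 were higher and 0 lower, with or without the block, though TES was called higher with the block when either library labelled arr1 was left out. TSO2 was not past the threshold in Pro35SARR1 against arr1 when any 1 of the 6 libraries was left out of the fit without the block, nor with scaling by library totals alone. With the block TOPII was also called there, as lower. TSO2 with the block stayed past the threshold unless Pro35SARR1 replicate 1 or Pro35SARR1 replicate 2 was left out.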

How the data were processed

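RNA of root explants was sequenced in 6 libraries, 2 for each genotype, grouped and numbered by the sample titles. AOE in the series description was read as Pro35SARR1. CASAVA and DESeq are named in the submitters' processing notes. The sources used here do not name a read aligner, a quantifier, a genome build or an annotation, or say whether counting used strand. Per the file headers, the authors' deposited table of all isoforms gives, for each library, an estimated count and an FPKM. A further deposited table by the authors, of genes that differ between arr1 and WT, gives an adjusted p-value (FDR), a log2 fold change and values treated as a score. Only its gene IDs and adjusted p-values (at most 0.00983) were used.

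The genes and lists were chosen with earlier results of these data known. For each gene ID the deposited estimated counts of its isoforms were added and rounded. After filterByExpr and TMM scaling, the quasi-likelihood F test of edgeR 4.0.16 in R 4.3.3 was run on all 6 libraries with a mean for each genotype. P-values were adjusted by Benjamini-Hochberg over 18083 genes, and an adjusted p under 0.05 was a call. The fit had 3 residual degrees of freedom, and its coefficient of biological variation was 0.214. An SE is the log2 fold change over the root of its F, and intervals cover 95%. In simulated counts for arr1 against WT (17826 genes) the test found 24% of 2-fold and 89% of 4-fold changes and called 6 unchanged genes. Every gene was simulated with the same spread, and no replicate effect was included. Deviations from the genotype means were correlated between libraries with the same number (17752 genes, Pearson's r of 0.272 for WT with arr1, 0.473 for WT with Pro35SARR1 and 0.268 for arr1 with Pro35SARR1). No batch or day is stated in the labels. The pairing rests on the numbers in the titles and on these correlations, and blocked values are given where they change a call. Alternatives were the block, DESeq2 1.42.0 and its size factors, no normalization factors, no filter or at least 1 CPM in 2 libraries, limma 3.58.1 on log2(FPKM + 1) and log2(FPKM + 0.1), only the compared genotypes, and each library left out. Sums by each isoform's own locus, and the block with each library left out, were chosen after seeing the data.

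Values in every library are given by rule for genes past the threshold in a comparison of genotypes, with or without the block, and for the 2 genes of each family with the lowest p, and for those said to be named after their values were seen. In any library 3 counts correspond to 0.335 to 0.345 CPM, a limit that covers counting error only. Promoters and motifs come from the RefSeq genome and annotation of TAIR10.1.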

Additional observations from a re-analysis of the deposited data

How the results depend on the processing

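The number of genes past the threshold in arr1 against WT depended on the model: 0 higher and 0 lower without the block, against 8 and 3 with the replicate block and 7 and 3 with the block on isoforms summed by their own locus. DESeq2 gave 3 and 1, with the merged ID of CYCA2;4 among the 3. Scaling by library totals alone gave 2 and 0 (KRP3 and that merged ID). Limma on log2(FPKM + 1) or log2(FPKM + 0.1) gave 1 and 0 (KRP3). The cause was not tested, and the share of all genes called is not given for fits with 1 library left out. With 1 library left out the counts were 0 to 0 in both directions without the block, and 1 to 4 higher and 0 to 2 lower with it. In Pro35SARR1 against arr1 the lower count was 0 to 1 with 1 library left out, 1 to 3 with the block and 1 library left out (higher 0 to 1), and 0 with isoforms summed by their own locus, with or without the block. CYCA2;4 then changed sign, to 0.0436 and to 0.0605 with the block, because the neighbour's transcripts had left the sum. For replicate 2 against replicate 1 the higher count was 0 to 1 with 1 library left out. In Pro35SARR1 against WT every alternative run left 0 and 0. Among the other cell cycle genes the block gave 5 higher and 2 lower in arr1 against WT (4 and 2 by own locus) and 1 lower in Pro35SARR1 against arr1 (1 by own locus). For single named genes, 405 values stayed on their side of the threshold with their sign, 49 passed it in an alternative alone, 4 missed it and 2 reversed. Scaling by totals alone moved the S-phase median to 0.25 in arr1 against WT and to −0.14 in Pro35SARR1 against arr1. With 2 libraries a genotype and 3 residual degrees of freedom, 2-fold changes were mostly missed in simulated data, where 24% were found. Every simulated gene had the same spread, so this is not the rate for the genes described here. Genes removed by filterByExpr for low counts were not tested.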

Other observations

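KRP4, a CDK inhibitor gene whose summed level was not past the threshold in any comparison, divided its estimated count between 2 annotated isoforms in a way that differed by label. The isoform AT2G32710.1 took 46.9% and 52.2% of the count in WT, 67.3% and 62.4% in the libraries labelled arr1, and 44.3% and 45.7% in Pro35SARR1. Both arr1 values lay above the other 4. KRP4 was singled out after the shares were seen, and it was not the only such gene. The isoform AT3G12280.2 of RBR1 took 16.7% and 25.1% in arr1 and 11.8% to 13.3% in the other libraries. The shares are the quantifier's estimates, and the differences were not tested.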
